A study of Mus musculus with 9 samples.

Results

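RAW264 is a mouse macrophage-like line, and the cytokine RANKL can turn its cells into bone-resorbing osteoclasts. The comparison described here sets 2 clones of this line against each other. Both carry a CRISPR/Cas9 mutation in the zinc finger gene Zscan10. The clone KO2 has its mutation in exon 5 and the clone KO1 in exon 2, per the sample characteristics, but the names given to the raw reads carry the opposite numbers, so which exon belongs to which clone is uncertain. Values were given to KO2 and KO1 by the column names that the sample descriptions list. Cells were electroporated with vectors that carry Cas9, a guide and a green fluorescent marker and were sorted as single cells, which makes each mutant group 1 clone. KO2, KO1 and Control, RAW264 cells labelled as having no mutation, had 3 libraries each, 9 in all, and none of the cultures received RANKL. The series asks, by its title, whether Zscan10 restrains osteoclast formation through inhibitory factors.

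Of 23420 listed genes 13569 had a read and 9564 had a value of at least 10 in 3 or more of the 9 libraries and were tested. The genes described here are the 9004 of them that lie outside 3 sets in which the clones differ as blocks, namely 159 genes induced by interferon or serving class I presentation, 347 genes of chromosome 12 and 62 genes of chromosome 16 beyond 70 Mb. These sets hold 560 tested genes, since 8 fall under more than 1 of them. Some genes that interferon also induces, such as Cfb and Cd40, were not on that list and remain among the 9004. Of the 9004 genes 17 passed the filter through KO2 libraries alone and 13 through KO1 libraries alone. In these no KO2 library could overlap a KO1 library. They had to differ between the clones, though not to be called (14 and 13 of them were called).

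Depth was 1821703 to 2458539 recovered reads per library. Values are normalised reads, and a log2 difference is KO2 minus KO1 of log2(normalised reads + 1) ± SE, which understates the difference of genes with few reads. A gene is called where the Benjamini-Hochberg adjusted p of a limma fit over all 9564 genes is under 0.05. The labels do not tell whether separate cultures lie behind the 3 libraries of a clone, and p-values then rest on the spread of these libraries alone, which may be technical. Libraries of 1 clone differed little beyond counting error, with a chi-square of their reads of 1.06 to 1.12 per degree of freedom. Zscan10 itself had 0 reads in all 9 libraries, Control included, which over their summed reads allows at most 0.154 CPM (3 reads), so its reads check neither clone. Macrophage genes were abundant in all libraries (lysozyme 2, Lyz2, had a level of 27689.8, 28317 and 27154 in KO2, 29636, 30596 and 30312 in KO1 and 18113, 17563 and 17219 in Control), while lists of T and NK cell, red cell and epithelial genes summed to at most 40.1 normalised reads in a library. The summed level of 15 dendritic markers was 199 to 234 in KO2, 526 to 565 in KO1 and 369 to 378 in Control, and the interferon-induced Bst2 alone gave 71.7 to 81.1 of it in KO2, 311 to 317 in KO1 and 105 to 120 in Control. Of the 2 dendritic markers tested outside the exclusions Tcf4 was lower in KO2 and Itgax was not called. Neural markers summed to 351 to 362 in KO2, 330 to 378 in KO1 and 329 to 352 in Control, and B lymphoid markers to 60.9 to 75.5 in KO2, 71.1 to 94.5 in KO1 and 84.4 to 109 in Control, with 0 called. Granulocyte and mast cell markers summed to 28.3 to 48.11 in KO2, 30.48 to 39.93 in KO1 and 59.8 to 88.37 in Control. Of 2 tested genes of this list 1 was called higher in KO2. Fibroblast, muscle and endothelial markers summed to 14.73 to 19.81 in KO2, 23.96 to 40.2 in KO1 and 27.92 to 47.21 in Control. The 1 tested gene of that list was called lower in KO2, with a log2 difference of -2.1752. The part of all these markers in the differences between the clones was not tested.

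Macrophages and osteoclasts share a precursor, and the balance of factors such as Nfatc1 against inhibitory receptors and transcription factors sets which way it goes. Macrophages also secrete large amounts of protein, which is folded in the endoplasmic reticulum (ER). When unfolded protein builds up there, the sensors Ern1, Atf6 and Eif2ak3 start the unfolded protein response, in which Xbp1 and Atf6 raise chaperone genes and Atf4 raises genes of amino acid supply. Cells of a line differ from each other before they are cloned, and a clone passes on the state of its founder cell. With 1 clone per mutation, the mutation and the origin of the clone cannot be told apart here.

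The 2 clones differed in many genes, mostly by small amounts. Of the 9004 genes 2073 were called (23.0%), 924 of them higher in KO2 than in KO1 (10.3%) and 1149 lower (12.8%). The median absolute log2 difference of the called genes was 0.41, or 1.33-fold, and 1433 of them differed by less than 1.5-fold. At the other end 280 differed by at least 2-fold and 74 by at least 4-fold, 31 of these higher and 43 lower in KO2. There were 10 called genes with 3 reads or fewer in all KO1 libraries together and 16 with 3 reads or fewer in KO2. Over all 9004 genes the median difference was -0.0048. With the excluded sets put back 2533 of 9564 genes were called (26.5%). DESeq2 on the recovered reads called 1209 genes outside the exclusions, 504 higher and 705 lower.

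**Figure D1:**
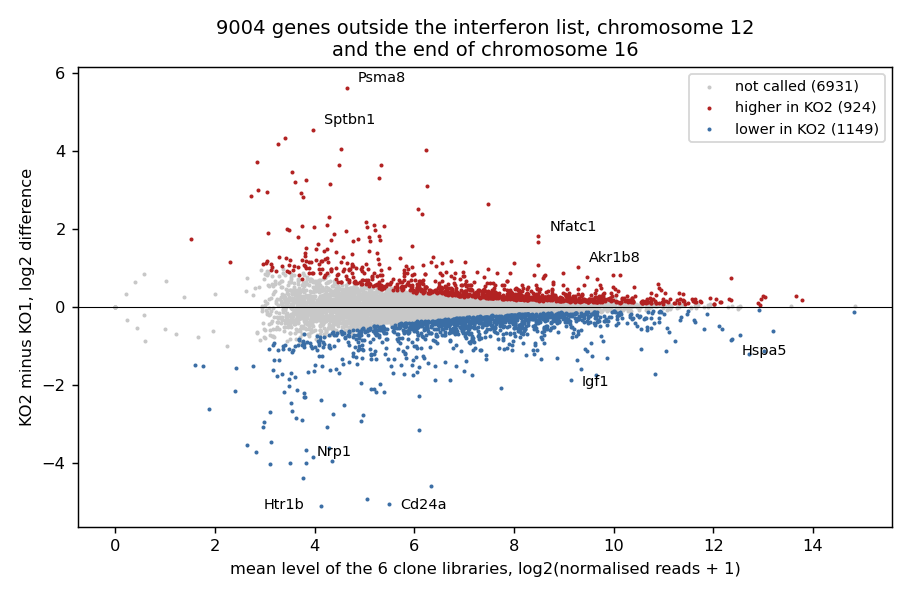
Each point is 1 of the 9004 genes, placed by its mean level in the 6 clone libraries (x axis, log2 scale) and its difference KO2 minus KO1 (y axis, log2), with the 924 genes called higher in KO2 in red, the 1149 called lower in blue and the others in grey. Most called genes lie close to 0, the largest differences are in genes of low level, and Nfatc1, Akr1b8, Igf1 and Hspa5 are examples of abundant genes that differ.

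Some genes were read in 1 clone and nearly absent from the other. Psma8, a proteasome subunit known from the testis (chromosome 18, 14706151 to 14762299, plus strand, mm10), had 44.3, 46.1 and 54.3 normalised reads in KO2 libraries, 0 in each KO1 library and 24.4, 23.6 and 17.8 in Control libraries. It was at least 47.1-fold higher in KO2 against the 3-read floor of KO1, with a limma adjusted p of 1.26e-21. Sptbn1, a spectrin of the membrane skeleton, had 24.5, 24.5 and 37.8 in KO2, 1 read in all KO1 libraries together and 27.9, 24.5 and 30.4 in Control, a ratio of 83.9-fold between the clones with a 95% counting interval of 14.6 to 3352. In both genes the KO1 clone was at or next to 0, while KO2 lay above Control for Psma8 and overlapped it for Sptbn1. Cytip, which binds cytohesins and limits adhesion of leukocytes, had 40.6, 45.2 and 41.3 in KO2, 2.06, 0.998 and 2.03 in KO1 and 11.3, 17.7 and 18.9 in Control, and was 25.1-fold higher in KO2 (log2 difference 4.03 ± 0.31, limma adjusted p = 1.77e-16). Pla2g5, a secreted phospholipase A2, had 69.8, 68.7 and 70.8 in KO2, 7.22, 3.99 and 8.13 in KO1 and 92.5, 75.6 and 103 in Control, and was 10.8-fold higher in KO2. For Cytip the KO2 level was above Control and the KO1 level below it, and for Pla2g5 the KO2 libraries all lay below the Control libraries by a smaller step.

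A further group was high in KO2 and lower in both other groups. Kirrel3, an immunoglobulin-type adhesion protein, had 13.2, 16.7 and 30.7 in KO2, against 1.03, 1.996 and 0 in KO1 and 0, 0 and 2.098 in Control, and rests on 57 reads in KO2 and 3 in KO1. Epb4.1l1, a band 4.1 protein that ties the membrane to actin, had 38.7, 29.5 and 35.4 in KO2, 4.12, 1.996 and 3.05 in KO1 and 1.74, 1.96 and 4.196 in Control. Cd300e, an activating receptor of myeloid cells, had 18.9, 17.7 and 24.8 in KO2, 1.03, 4.99 and 0 in KO1 and 0.872, 2.95 and 4.196 in Control. In all 3 genes no KO2 library overlapped any library of the other groups, and all 3 passed the filter through KO2 libraries alone, so that they had to differ. The log2 difference of Cd300e was 3.21 ± 0.48 and depended on single libraries, being 3.90 without KO1 replicate 2 and 2.61 without KO1 replicate 3. Smo, the transducer of Hedgehog signals (chromosome 6, 29735497 to 29761366), had 126, 146 and 132 in KO2, 10.3, 16.97 and 18.3 in KO1 and 47.98, 39.3 and 48.3 in Control (log2 difference 3.11 ± 0.18, limma adjusted p = 1.71e-21). The secreted factor Angptl2 had 142, 146 and 137 in KO2, 10.3, 4.99 and 9.15 in KO1 and 24.4, 30.4 and 33.6 in Control, a difference of 17.5-fold between the clones. Control lay between the clones in Smo and Angptl2, apart from both.

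In the other direction Htr1b, a serotonin receptor (chromosome 9, 81631392 to 81632552, minus strand), had 0 reads in each KO2 library, against 31.95, 30.9 and 36.6 in KO1 and 38.4, 49.1 and 37.8 in Control, at least 32.3-fold lower in KO2. Cd24a, a surface glycoprotein anchored by lipid (chromosome 10, 43579169 to 43584265), had 1.89, 1.96 and 1.18 in KO2, 79.4, 103 and 77.2 in KO1 and 126, 139 and 148 in Control, and was 50.7-fold lower in KO2 (log2 difference -5.03 ± 0.21, limma adjusted p = 1.68e-28). Ceruloplasmin (Cp), the copper-carrying ferroxidase, had 5.66, 4.91 and 5.9 in KO2, 140.2, 165 and 159.5 in KO1 and 188, 208 and 207 in Control, 28.3-fold lower in KO2. These 3 genes were far lower in KO2 than in the other groups, and KO1 lay below Control by a smaller step. Exons of Htr1b overlap D430036J16Rik and exons of Cp overlap Hps3 on the opposite strand, and the sources used here do not say whether counting used strand, so reads of the partners cannot be told apart. Ranbp3l, a Ran-binding protein, had 0.943, 0 and 3.54 in KO2, 63.9, 72.9 and 50.8 in KO1 and 92.5, 83.5 and 78.7 in Control. Chst1, a sulfotransferase of keratan sulfate, had 1 read in KO2 against 74 in KO1, and Ppm1e, a protein phosphatase, had 3 against 84. The aspartic protease cathepsin E (Ctse) had 3.77, 1.96 and 0 in KO2, 31.95, 48.9 and 29.5 in KO1 and 77.6, 76.6 and 82.9 in Control, with a log2 difference of -3.93 ± 0.32 that was -3.29 without KO2 replicate 3. The KO2 libraries of all 7 genes lay below every KO1 library, which the rule that named them required.

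**Figure D2:**
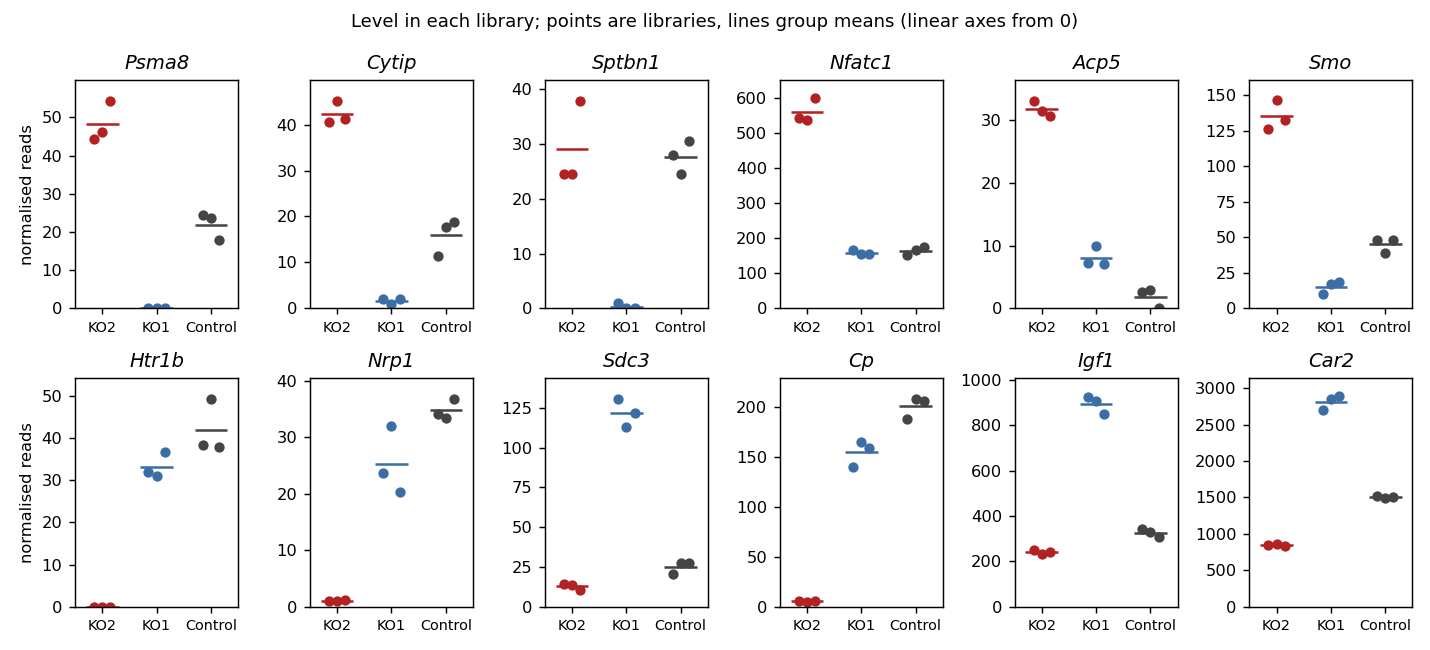
Each panel gives 1 gene, with normalised reads on a linear y axis from 0, the 3 libraries of KO2, KO1 and Control as points and group means as lines. The KO2 and KO1 points do not overlap in any of the 12 genes. The naming rule required this of all but Nfatc1, Acp5, Igf1 and Car2, and the filter on low values required it of Acp5. Control sits near KO2 for Sptbn1, near KO1 for Nfatc1 and Htr1b, and between the clones for Psma8, Cytip, Smo, Sdc3, Igf1 and Car2.

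In some genes, Psma8 and Cytip among them, the 2 clones were called in opposite directions against the Control libraries, which both comparisons share. The 6 described next are, with these 2, the 4 in each direction with the largest difference between the clones. Shisa3 had 18.9, 18.7 and 20.1 in KO2, 0 in each KO1 library and 2.62, 1.96 and 4.196 in Control. Lysmd2 had 16.04, 15.7 and 20.1 in KO2, 0 in each KO1 library and 4.36, 3.93 and 5.25 in Control. Both were above Control in KO2 and not detectable in KO1 at this depth. Xkr5 had 0 reads in KO2, 13.4, 13.97 and 18.3 in KO1 and 1.74, 2.95 and 5.25 in Control, and cyclin D2 (Ccnd2) had 0, 0.982 and 1.18 in KO2, 12.4, 15.97 and 10.2 in KO1 and 4.36, 2.95 and 5.25 in Control. Syndecan-3 (Sdc3), a heparan sulfate proteoglycan, had 14.2, 13.7 and 10.6 in KO2, 131, 113 and 122 in KO1 and 20.9, 27.5 and 27.3 in Control, and was 9.38-fold lower in KO2 (log2 difference -3.16 ± 0.20, limma adjusted p = 2.49e-20). Fgf13 had 8.49, 6.87 and 5.9 in KO2, 43.3, 53.9 and 64.02 in KO1 and 31.4, 37.3 and 28.3 in Control. In these 4 genes KO1 lay above Control and KO2 below it. Shisa3 and Lysmd2 passed the filter through KO2 libraries alone, and Xkr5 and Ccnd2 through KO1 libraries alone, so the filter required them to differ between the clones.

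Among abundant genes, those with a mean of at least 500 normalised reads in the higher clone, the largest steps upward in KO2 were in Nfatc1, Akr1b8, Slc43a2, Itga5 and Taldo1, and the largest downward in Igf1, Ly86, Car2, Hmox1 and Tmem176b. Insulin-like growth factor 1 (Igf1) had 252, 235 and 241 in KO2, 925, 905 and 851 in KO1 and 343, 329 and 306 in Control, 3.68-fold lower in KO2 (log2 difference -1.88 ± 0.06, limma adjusted p = 6.27e-34). The amino acid transporter gene Slc43a2 had 647, 637 and 693 in KO2, 371, 373 and 332 in KO1 and 247, 235 and 231 in Control. Tmem176b, a membrane protein of myeloid cells, had 350.03, 356 and 328 in KO2, 873, 893 and 893 in KO1 and 919, 904 and 933 in Control. For Igf1 the KO1 clone was far above both other groups, for Slc43a2 both clones lay above Control, and for Tmem176b KO2 was far below Control and KO1 slightly below it. Still more abundant genes also differed. Itga4, the integrin alpha 4 chain, had 4030.5, 4156 and 4108 in KO2, 9532, 9239 and 9328 in KO1 and 5548, 5719 and 5627 in Control (log2 difference -1.19 ± 0.02), and osteopontin (Spp1), a secreted matrix protein that osteoclasts also make, had 5173, 5139.7 and 5223 in KO2, 10877, 11617 and 11661 in KO1 and 7257, 6952 and 7293 in Control (-1.14 ± 0.02). Itga4 was chosen after its values were seen, and its exons overlap Cerkl on the opposite strand.

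Genes of the osteoclast programme were called in both directions. Of 33 tested drivers of osteoclast differentiation 7 were higher and 5 lower in KO2 (21.2% and 15.2%, against 10.3% and 12.8% of all 9004 genes). Of 24 effector and fusion genes 6 were higher and 6 lower (25% each). The drivers' share of lower genes was close to that of all genes. The median log2 difference of both lists was near 0 (-0.0219 and -0.0104) and changed sign without single libraries. Nfatc1, the transcription factor that starts the programme (chromosome 18, 80606205 to 80713071), had 542, 537 and 598 in KO2, 166, 156 and 155 in KO1 and 151, 166 and 176 in Control, 3.5-fold higher in KO2 (log2 difference 1.81 ± 0.08, limma adjusted p = 2.38e-28). KO1 and Control overlapped. The bone-resorbing cell's acid phosphatase gene Acp5 had 33.02, 31.4 and 30.7 in KO2, 7.22, 9.98 and 7.11 in KO1 and 2.62, 2.95 and 0 in Control, 3.92-fold higher in KO2, and the podosome scaffold gene Sh3pxd2a had 55.7, 52.04 and 47.2 in KO2, 13.4, 11.98 and 22.4 in KO1 and 57.6, 54.99 and 62.9 in Control. The tyrosine kinase gene Src, named after its values were seen, had 12.3, 12.8 and 10.6 in KO2, 1.03, 0 and 1.02 in KO1 and 0.872, 0 and 0 in Control. Dcstamp, needed for fusion of precursors, had 30.2, 29.5 and 23.6 in KO2, 10.3, 16.97 and 13.2 in KO1 and 19.2, 16.7 and 16.8 in Control, and was also named for its values. In Sh3pxd2a KO2 overlapped Control, and KO1 lay below both. All 4 genes were higher in KO2 than in KO1 without overlap, and Acp5 and Src passed the filter through KO2 libraries alone, so that they had to differ. Carbonic anhydrase 2 (Car2), which supplies acid for resorption, went the other way, with 853, 868 and 833 in KO2, 2703, 2852 and 2885 in KO1 and 1525, 1487 and 1504 in Control, 3.301-fold lower in KO2. The receptor of RANKL, Tnfrsf11a, was called higher in KO2 by a small step, and was named after its values were seen. It had 519.9, 508 and 486 in KO2, 436, 413 and 438 in KO1 and 244, 243 and 275 in Control, so both clones lay above Control.

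Of 32 tested osteoclast inhibitory factors 4 were higher and 12 lower in KO2 (37.5% lower, against 12.8% of all 9004 genes; median -0.21). Nrp1, a co-receptor of semaphorins, had 3 reads in KO2 and 75 in KO1, a ratio of 24.7-fold with a 95% counting interval of 8.15 to 123, and its level was 34.02, 33.4 and 36.7 in Control. The interleukin 10 receptor gene Il10ra had 54.7, 53.02 and 51.9 in KO2, 96.9, 88.8 and 96.5 in KO1 and 95.96, 101 and 90.2 in Control. The inhibitory receptor gene Lilrb4 had 157, 146 and 182 in KO2, 294, 338 and 308 in KO1 and 320.2, 304 and 318 in Control, a log2 difference of -0.95 ± 0.08. In all 3 genes KO2 lay below every KO1 and Control library, and KO1 and Control overlapped for Il10ra and Lilrb4. Cd200r1, the receptor of the inhibitory ligand CD200, was also lower in KO2 (log2 difference -1.80 ± 0.30), whereas Socs3, an inhibitor of cytokine signalling, was higher (1.14 ± 0.29). Lilrb4, Cd200r1 and Socs3 were named after their values were seen.

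The list of ER chaperones and the unfolded protein response had the highest share called in 1 direction among the 36 lists. Of 43 tested genes 36 were called lower in KO2 and 0 higher (83.7% lower, against 12.8% of all 9004 genes; 0 were higher at an unadjusted p under 0.05 in the limma fit or by DESeq2), and the median log2 difference was -0.47, against -0.0048 over all 9004 genes. The chaperone BiP (Hspa5), the central chaperone of the ER, had 3774, 3628 and 3789 in KO2, 6691, 6641 and 6812 in KO1 and 5669, 5862 and 5617 in Control, 1.801-fold lower in KO2 (log2 difference -0.85 ± 0.03, limma adjusted p = 9.46e-35). The Hsp90 of the ER, Hsp90b1, had 4518, 4486 and 4456 in KO2, 7411, 7292 and 7453 in KO1 and 6146, 6223 and 6041 in Control. Creld2, a secreted ER stress protein, had 219, 201 and 208 in KO2, 506, 539 and 546 in KO1 and 428, 405 and 406 in Control, with the largest difference of the list (-1.34 ± 0.06). Each of these had KO2 below Control and KO1 above it, with no overlap among the 3 groups. The mean of the Control libraries lay between the 2 clones in 33 of the 36 called genes of the list (91.7%), against 1244 of all 2073 called genes (60.0%). The list lay below Control in KO2 (median -0.34) and above it in KO1 (0.17), values that share the Control libraries.

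The co-chaperones and redox enzymes followed. Sdf2l1 had a log2 difference of -1.20 ± 0.06, the disulfide isomerase Pdia4 of -1.13 ± 0.05, the secreted factor Manf of -1.08 ± 0.05, the nucleotide exchange factor Hyou1 of -1.07 ± 0.04, and the co-chaperone Dnajc3 of -0.92 ± 0.06. The lectin chaperone genes Calr (-0.57 ± 0.03) and Canx (-0.26 ± 0.03) and the isomerase Pdia3 (-0.55 ± 0.03) were lower by smaller steps. Members of the degradation route were also lower in KO2, namely Herpud1 (-0.92 ± 0.09), Edem1 (-0.88 ± 0.04) and Derl2 (-0.55 ± 0.11). The translocon and its partners made small called steps, such as -0.37 ± 0.05 for Sec61a1 and -0.24 ± 0.05 for Ssr2. The 7 genes that were not called were Ppp1r15a, Sec61b, Edem2, Ern1, Atf6, Ero1l and Creb3l2. Thus 2 sensor genes of the response, Ern1 (-0.084 ± 0.21) and Atf6 (0.026 ± 0.05), did not pass the test, while the transcription factor gene Xbp1 was lower in KO2 with 455, 496 and 454, against 618, 571 and 590.4 in KO1 and 529, 514 and 521 in Control. Apart from Creld2, Sdf2l1 and Pdia4 the genes of this list were named after their values were seen. The count of genes called lower ranged from 33 to 36 over the alternatives tried, and 0 were called higher in any of them.

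**Figure D3:**
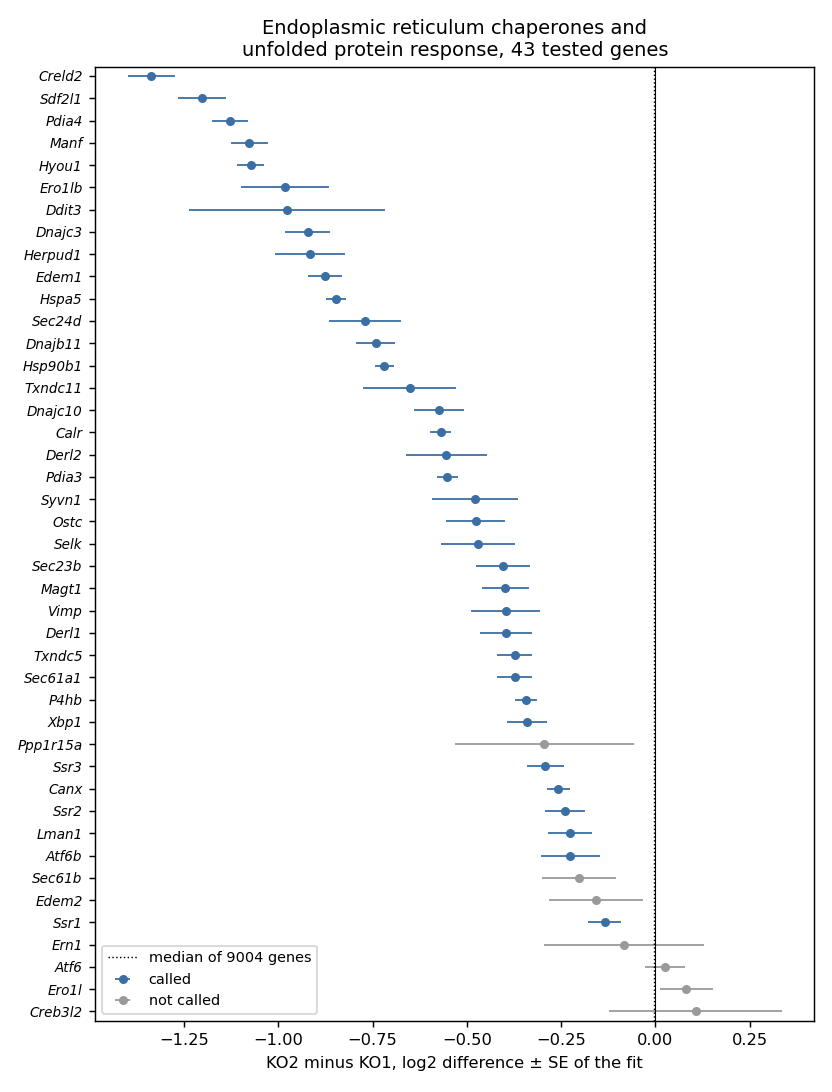
Each row is 1 of the 43 tested genes of the list, with its log2 difference KO2 minus KO1 on the x axis and the SE of the fit as a bar, called genes in blue and the 7 others in grey. The points run from Creld2 at the top, the lowest in KO2, to Creb3l2 at the bottom, and all 36 called genes lie below 0.

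Chaperone genes of the ER are known to carry an ER stress response element in their promoters, written as CCAAT, any 9 bases, then CCACG, and a second form written as ATTGG, any 1 base, then CCACG. Windows of 300 bases, from 250 before to 50 after a gene start, came from the RefSeq table of GRCm38.p6, the assembly of mm10, and were searched for both on both strands. A window was matched for 35 of the 43 tested genes of the list and for 7294 of the 9004 genes. Either element was found in 10 of the 35 windows (28.6%) and in 17 of the 7294 (0.233%). All 10 genes with a match were called lower in KO2, as were 29 of the 35 matched genes of the list. Off the list 3 of 861 matched genes called lower in KO2 had one (0.348%). Of the 762 matched genes called higher in KO2, none of them on the list, 0 had one. At 0.233% of all matched genes the element is so rare that this 0 carries little. Of all 32817 windows in RefSeq's set, 39 held the first element (0.119%) and 12 the second (0.0366%). ATTGG is the reverse complement of CCAAT, and no window of the list held both elements. The list is known for this element, so the match describes the list and not the clones. The windows of 4 called genes are shown because they hold the element, in lower case with its matches in capitals.
Hspa5 (chr2:34771840-34772139, plus strand): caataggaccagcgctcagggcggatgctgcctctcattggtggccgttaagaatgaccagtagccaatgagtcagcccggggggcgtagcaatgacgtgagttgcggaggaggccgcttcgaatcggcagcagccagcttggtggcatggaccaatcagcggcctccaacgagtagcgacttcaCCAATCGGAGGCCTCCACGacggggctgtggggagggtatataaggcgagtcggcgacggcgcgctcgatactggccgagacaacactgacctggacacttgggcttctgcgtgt
Hsp90b1 (chr10:86705395-86705694, minus strand): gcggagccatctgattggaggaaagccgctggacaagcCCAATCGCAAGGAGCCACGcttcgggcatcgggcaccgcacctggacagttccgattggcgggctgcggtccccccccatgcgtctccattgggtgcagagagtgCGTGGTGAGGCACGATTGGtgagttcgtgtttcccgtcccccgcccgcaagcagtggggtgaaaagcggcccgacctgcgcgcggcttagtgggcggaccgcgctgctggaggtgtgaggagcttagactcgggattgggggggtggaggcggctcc
Creld2 (chr15:88819396-88819695, plus strand): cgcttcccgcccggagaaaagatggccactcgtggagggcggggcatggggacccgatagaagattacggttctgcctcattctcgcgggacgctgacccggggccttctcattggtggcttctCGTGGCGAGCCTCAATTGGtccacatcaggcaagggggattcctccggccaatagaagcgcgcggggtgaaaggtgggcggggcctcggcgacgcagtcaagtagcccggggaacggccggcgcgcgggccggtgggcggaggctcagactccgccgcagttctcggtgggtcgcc
Herpud1 (chr8:94386179-94386478, plus strand): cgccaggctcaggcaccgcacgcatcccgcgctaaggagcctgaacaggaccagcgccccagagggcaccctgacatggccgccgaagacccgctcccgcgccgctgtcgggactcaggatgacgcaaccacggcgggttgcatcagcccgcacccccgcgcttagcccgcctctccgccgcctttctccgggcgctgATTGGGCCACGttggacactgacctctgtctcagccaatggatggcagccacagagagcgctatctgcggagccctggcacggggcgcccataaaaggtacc
Each run is written 5' to 3' on the strand of the gene, and the capitals of Creld2 and the second capitals of Hsp90b1 hold the element on the opposite strand. The capitals begin 65 bases before the start of Hspa5, at 212 and 107 bases before that of Hsp90b1 and 126 bases before that of Creld2, and mark the first element. In Herpud1 they mark the second form and begin 52 bases before the start. The windows of Pdia4 and Sdf2l1, whose genes differed more than Hspa5, held neither element, which says only that these letters are not in these windows.

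The ATF4 branch leaned the same way with smaller steps. Of 38 tested genes of ATF4, serine and amino acid supply 15 were lower and 3 higher in KO2 (median -0.13). These are 39.5% and 7.89%, against 12.8% and 10.3% of all 9004 genes. DESeq2 called 8 lower and 2 higher. Some of the genes, Ddit3 among them, are on the ER list too, and their part in these counts was not tested. Nupr1, a stress-induced nuclear protein, had 33.96, 36.3 and 30.7 in KO2, 76.3, 72.9 and 73.2 in KO1 and 44.5, 39.3 and 35.7 in Control, and Atf4 itself, named after its values were seen, had 488, 455 and 489 in KO2, 591, 565 and 619 in KO1 and 587, 543 and 566 in Control. Ddit3, the stress factor CHOP, had 14.2, 14.7 and 8.26 in KO2, 22.7, 24.95 and 26.4 in KO1 and 22.7, 28.5 and 19.9 in Control, but was not called by DESeq2 (adjusted p = 0.052), and its exons overlap Mars on the other strand. Stc2, a secreted glycoprotein induced by ER stress, went against its list with 24.5, 39.3 and 30.7 in KO2, 3.09, 6.99 and 7.11 in KO1 and 51.5, 42.2 and 54.5 in Control (log2 difference 2.31 ± 0.26). For Stc2 both clones lay below Control, KO1 by more.

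Several genes of lipid synthesis were higher in KO2 than in KO1, and many were not called. Of 24 tested genes of cholesterol biosynthesis 12 were higher and 1 lower (11 not called, 50% higher, against 10.3% of all 9004 genes; median 0.27), and of 34 genes of fatty acid metabolism and LXR targets 16 were higher and 3 lower (15 not called, 47.1% higher, median 0.21). Hmgcs1, the synthase at the entry of the pathway, had 263, 258 and 274 in KO2, 170.1, 174 and 199 in KO1 and 278, 257 and 243 in Control (log2 difference 0.55 ± 0.08, limma adjusted p = 4.62e-08). Nsdhl, an enzyme of the later steps, had 129, 116 and 120.4 in KO2, 68.03, 94.8 and 81.3 in KO1 and 109, 107 and 106 in Control. In Hmgcs1 the Control libraries overlapped those of KO2 and lay above those of KO1. Idi1 (0.48 ± 0.07), which isomerises the isoprenoid building block, was also higher in KO2, and the single gene of the list that was lower was Pmvk (-0.47 ± 0.16), which lost its call without KO1 replicate 1, KO1 replicate 3 or KO2 replicate 3. The list as a whole had a median of -0.0879 in KO2 and -0.35 in KO1 against the shared Control libraries.

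Among the fatty acid genes the lipid phosphodiesterase Smpdl3a, a target of LXR, had 101, 109.96 and 136 in KO2, 43.3, 58.9 and 40.6 in KO1 and 44.5, 39.3 and 32.5 in Control, and lipoprotein lipase (Lpl) had 6470.3, 6387 and 6796 in KO2, 3826, 4027 and 3882 in KO1 and 2701, 2885 and 2812 in Control. The desaturase Scd2 had 1662, 1627 and 1479 in KO2, 1039.99, 1169 and 1163 in KO1 and 2327, 2174 and 2276 in Control, so both clones lay below Control and KO1 by more. The cholesterol exporter gene Abcg1 went the other way, with 67.9, 71.7 and 41.3 in KO2, 95.9, 103 and 125 in KO1 and 154, 125 and 163 in Control (log2 difference -0.86 ± 0.14), and Abca1 was not called (-0.40 ± 0.23). DESeq2 called 9 of the 34 genes higher and 2 lower. Lpl, Scd2, Abca1, Idi1 and Pmvk were named after their values were seen.

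**Figure D4:**
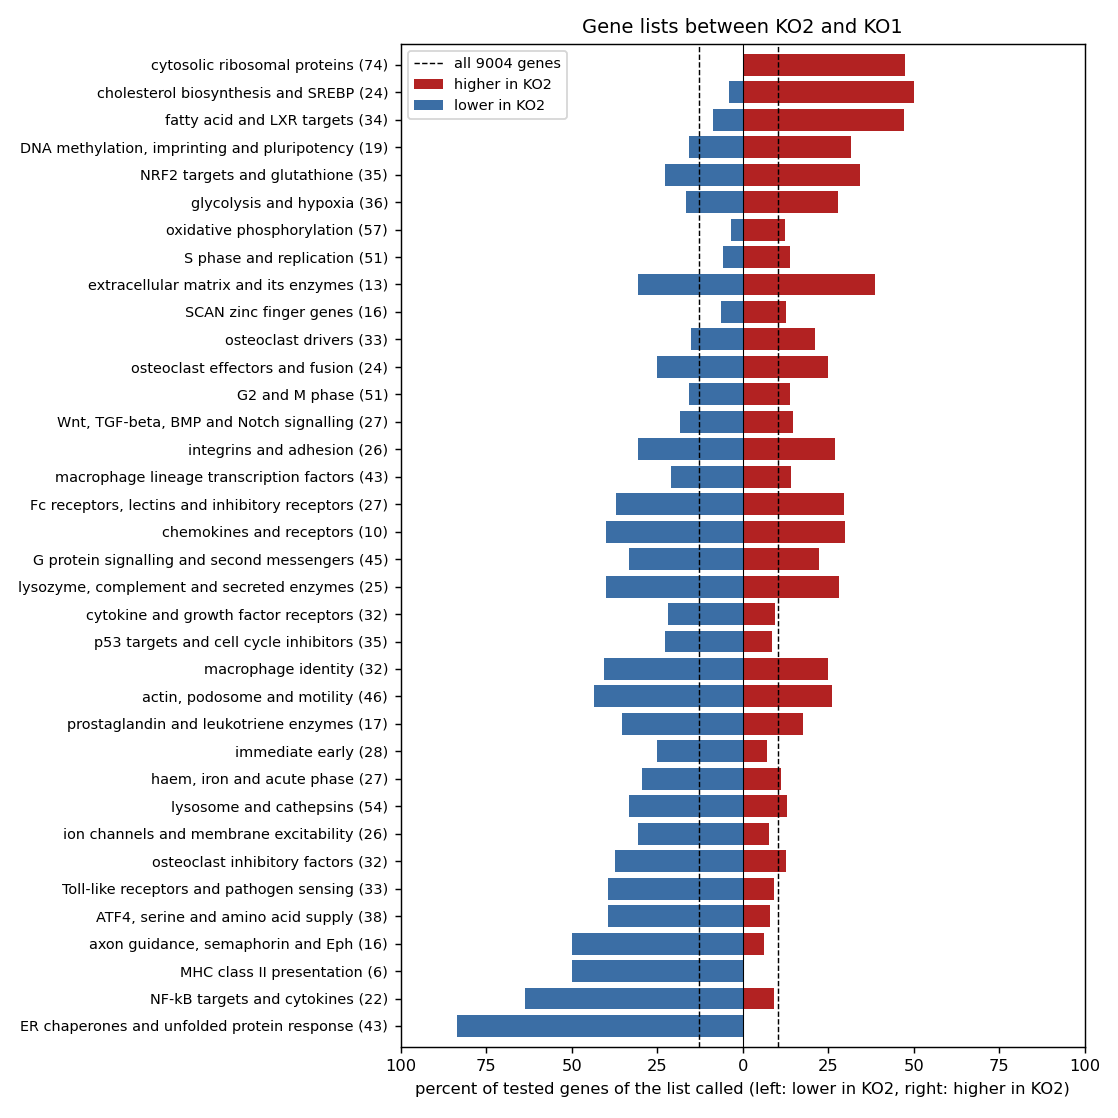
Bars give the percent of the tested genes of each list (number in parentheses) that were called higher in KO2, to the right in red, or lower in KO2, to the left in blue, and dashed lines mark the 10.3% and 12.8% of all 9004 genes. The ER list reaches 83.7% to the left, and ribosomal, cholesterol and fatty acid genes reach 47.1% to 50% to the right.

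Many inflammatory genes outside the interferon list were lower in KO2. Of 22 tested NF-kB targets and cytokines 14 were lower and 2 higher (63.6% lower, median -0.52), and of 33 genes of Toll-like receptors and pathogen sensing 13 were lower, 3 higher and 17 not called (39.4% lower, against 12.8% of all 9004 genes, median -0.32). Cd83, an activation marker of antigen-presenting cells, had 14.2, 7.85 and 15.3 in KO2, 29.9, 38.9 and 27.4 in KO1 and 53.2, 51.1 and 60.8 in Control, and the chemokine gene Ccl4 had 31.1, 30.4 and 38.9 in KO2, 74.2, 74.9 and 81.3 in KO1 and 91.6, 74.6 and 83.9 in Control. The receptor gene Cd40 had 0.943, 2.95 and 2.36 in KO2, 20.6, 14.97 and 26.4 in KO1 and 4.36, 3.93 and 4.196 in Control. All 3 were lowest in KO2, and only Cd40 was higher in KO1 than in Control. Cd40 passed the filter through KO1 libraries alone, so it had to differ. The monocyte chemokine Ccl2 went against the list, with 18.9, 17.7 and 30.7 in KO2, 2.06, 1.996 and 2.03 in KO1 and 6.11, 4.91 and 11.5 in Control (log2 difference 2.91 ± 0.37, limma adjusted p = 3.91e-09), and so did Ccl9, with 509, 483 and 493 in KO2, 289, 273 and 296 in KO1 and 415, 391 and 398 in Control. Tnf was lower by less (-0.43 ± 0.08), and Icam1, Relb and Sod2 were among the 6 genes not called.

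Ly86, the partner of the Toll-like receptor homologue Cd180, had 376, 396 and 342 in KO2, 1227, 1243 and 1260.03 in KO1 and 809, 843 and 762 in Control, 3.33-fold lower in KO2 (log2 difference -1.74 ± 0.05). The inflammasome sensor gene Nlrp3 had 189, 167 and 176 in KO2, 329.8, 321 and 324 in KO1 and 277, 260.2 and 315 in Control, and Casp1, the protease it activates, had 107, 106 and 105 in KO2, 175, 196 and 179 in KO1 and 155, 149 and 153 in Control. All 3 were lower in KO2 than in every KO1 and Control library. The endotoxin receptor genes did not move alike, since Cd14 was lower in KO2 (-0.58 ± 0.04) and Tlr4 did not pass the test (0.009 ± 0.09). Tlr8 was higher in KO2 (1.16 ± 0.34), a call lost without KO2 replicate 2 (limma adjusted p = 0.0668). Of 6 tested genes of class II presentation 3 were lower, among them the invariant chain Cd74 with 195, 179 and 177 in KO2, 282, 320.4 and 297 in KO1 and 579, 535 and 578 in Control. Complement factor B (Cfb) had 4.72, 4.91 and 2.36 in KO2, 17.5, 25.95 and 21.3 in KO1 and 6.98, 5.89 and 5.25 in Control, and also passed the filter through KO1 libraries alone. Of 25 genes of lysozyme, complement and secreted enzymes 10 were lower and 7 higher (40% and 28%, against 12.8% and 10.3% of all 9004 genes). Cd14, Tlr4, Tlr8 and Tnf were named after their values were seen.

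Macrophage identity genes moved both ways, 8 of 32 higher and 13 lower in KO2 (25% and 40.6%, against 10.3% and 12.8% of all 9004 genes, median -0.0299). The list summed to 60213 to 60863 normalised reads in KO2 libraries, 64951 to 66126 in KO1 libraries and 43845 to 44915 in Control libraries. Mpeg1, a pore-forming protein of phagocytes, had 542, 559.6 and 519 in KO2, 1347, 1299.6 and 1334 in KO1 and 1151, 1203 and 1109.9 in Control (log2 difference -1.29 ± 0.04, limma adjusted p = 8.52e-33), and the calcium-binding Aif1 had 7.55, 13.7 and 8.26 in KO2, 27.8, 37.9 and 27.4 in KO1 and 18.3, 19.6 and 18.9 in Control. The receptor of macrophage colony-stimulating factor, Csf1r, did not pass the test, with 5692, 5839 and 5609 in KO2, 5933, 5843 and 5833 in KO1 and 6027, 5959 and 6052 in Control. Of 27 Fc receptor, lectin and inhibitory receptor genes 8 were higher and 10 lower (29.6% and 37%). The count of higher genes was 5 without KO2 replicate 2, without KO1 replicate 1 or without KO1 replicate 3. Cd300a, an inhibitory receptor, had 347, 351 and 347 in KO2, 145, 182 and 156 in KO1 and 167, 163 and 187 in Control, and Lair1, an inhibitory receptor of collagen, had 21.7, 17.7 and 21.2 in KO2, 41.2, 62.9 and 53.9 in KO1 and 27.9, 26.5 and 40.9 in Control. The first was high in KO2 alone and the second was high in KO1.

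Signalling genes include several whose products or transcripts respond to the kinase ERK. Of 28 tested immediate early genes 7 were lower and 2 higher in KO2 (25% and 7.14%, against 12.8% and 10.3% of all 9004 genes), and the median was -0.17, or -0.0219 without the filter on low values. Dusp6, the phosphatase that switches ERK off and is induced by it, had 2.83, 1.96 and 1.18 in KO2, 37.1, 33.9 and 33.5 in KO1 and 40.1, 26.5 and 30.4 in Control, 16.99-fold lower in KO2 (log2 difference -3.62 ± 0.29, limma adjusted p = 5.93e-16). The transcription factor gene Egr1 had 29.2, 30.4 and 22.4 in KO2, 73.2, 75.9 and 83.3 in KO1 and 137, 147 and 128 in Control, and Etv5 had 43.4, 38.3 and 41.3 in KO2, 109, 101 and 98.6 in KO1 and 102, 101 and 106 in Control. The 3 genes were lowest in KO2, and in Dusp6 and Etv5 the KO1 and Control libraries overlapped. Spred1, an inhibitor of the same pathway, was lower too (-0.50 ± 0.05), while Myc, Jun and Junb were not called. Spred1 was named after its values were seen.

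Of 45 tested genes of G protein signalling 10 were higher and 15 lower in KO2 (22.2% and 33.3%, against 10.3% and 12.8% of all 9004 genes). Plcb2, a phospholipase C that G proteins activate, had 312, 311 and 301 in KO2, 43.3, 46.9 and 56.9 in KO1 and 117, 131 and 116 in Control, 6.29-fold higher in KO2 (log2 difference 2.64 ± 0.11, limma adjusted p = 4.54e-29). Pde8a, which breaks down cAMP, had 40.6, 44.2 and 36.6 in KO2, 3.09, 1.996 and 2.03 in KO1 and 16.6, 12.8 and 7.34 in Control, whereas Rgs1, which shortens G protein signals, had 3.77, 4.91 and 1.18 in KO2, 36.1, 32.9 and 28.5 in KO1 and 40.1, 53.02 and 53.5 in Control. Plcb2 and Pde8a lay above Control in KO2 and below it in KO1. Of 16 genes of axon guidance, semaphorins and Eph receptors 8 were lower in KO2 and only Plxnd1 was higher (50% lower, median -0.33). Beside Nrp1 these include the semaphorin receptor Plxnc1, with 108, 108 and 101 in KO2, 178, 177 and 182 in KO1 and 222, 231 and 227 in Control. Of 27 genes of Wnt, TGF-beta, BMP and Notch signalling 4 were higher and 5 lower (14.8% and 18.5%). The list had 2 higher without KO1 replicate 3 and 3 lower without KO2 replicate 1. The receptor Notch1 (26.4, 13.7 and 21.2 in KO2, 2.06, 6.99 and 4.06 in KO1, 12.2, 10.8 and 13.6 in Control) and its ligand Jag1 (17.9, 24.5 and 27.1 in KO2, 37.1, 52.9 and 42.7 in KO1, 20.1, 23.6 and 19.9 in Control) differed in opposite directions. Smad3, which carries TGF-beta signals, was lower in KO2 (-0.87 ± 0.17). Il18rap, a receptor chain of interleukin 18, had 53.8, 55.96 and 47.2 in KO2, 10.3, 10.98 and 11.2 in KO1 and 119, 111 and 119 in Control, so it was below Control in both clones. Among the 32 cytokine and growth factor receptors 3 were higher and 7 lower in KO2 (9.38% and 21.9%, with 4 lower without KO2 replicate 1).

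Genes of the cell surface and the cytoskeleton also changed on both sides. Of 26 tested integrin and adhesion genes 7 were higher and 8 lower (26.9% and 30.8%, against 10.3% and 12.8% of all 9004 genes). The integrin alpha 5 chain (Itga5) had 486, 499 and 525 in KO2, 311, 255 and 285 in KO1 and 228, 194 and 218 in Control, whereas the alpha 6 chain (Itga6) had 10.4, 12.8 and 15.3 in KO2, 56.7, 60.9 and 55.9 in KO1 and 51.5, 40.3 and 45.1 in Control. The alpha 5 chain was thus higher in KO2 and the alpha 6 chain lower, as was the more abundant alpha 4 chain (Itga4) given above. Of 46 genes of actin, podosomes and motility 12 were higher and 20 lower (26.1% and 43.5%). Filamin C (Flnc), an actin cross-linker, had 104, 123 and 127 in KO2, 21.6, 25.95 and 18.3 in KO1 and 55.8, 56.9 and 57.7 in Control (log2 difference 2.38 ± 0.16), and the leukocyte actin-binding protein Lsp1 had 93.4, 65.8 and 68.4 in KO2, 173, 161 and 164 in KO1 and 395, 430.1 and 375 in Control. Supervillin (Svil), which links actin and membrane, had 26.4, 30.4 and 17.7 in KO2, 2.06, 0.998 and 2.03 in KO1 and 20.9, 37.3 and 38.8 in Control. Of 13 matrix genes 5 were higher and 4 lower (38.5% and 30.8%, with 2 lower without KO2 replicate 3 or without KO1 replicate 1). The collagen Col18a1 had 114, 99.2 and 119 in KO2, 54.6, 43.9 and 48.8 in KO1 and 14.8, 9.82 and 6.29 in Control, above Control in both clones. Of 26 ion channel genes 2 were higher and 8 lower (7.69% and 30.8%). The calcium channel gene Cacna1a had 24.5, 37.3 and 41.3 in KO2, 93.8, 91.8 and 113 in KO1 and 80.3, 56.9 and 76.6 in Control.

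Enzymes of prostaglandins differed in opposite directions along the pathway. Prostaglandin synthase 1 (Ptgs1) had 59.4, 67.7 and 54.3 in KO2, 16.5, 15.97 and 16.3 in KO1 and 39.3, 34.4 and 28.3 in Control, and the inducible Ptgs2, named after its values were seen, had 157, 146 and 179 in KO2, 311, 259 and 270.3 in KO1 and 146, 161 and 139.5 in Control. The constitutive enzyme was thus higher in KO2 (log2 difference 1.83 ± 0.20) and the inducible enzyme lower (-0.80 ± 0.09). The prostacyclin receptor gene Ptgir had 66.04, 48.1 and 55.5 in KO2, 5.15, 19.96 and 17.3 in KO1 and 39.3, 44.2 and 39.9 in Control. Hpgd, which inactivates prostaglandins, had 1 read in KO2 and 60 in KO1, a ratio of 59.4-fold with a 95% counting interval of 10.3 to 2384, and 315, 300.5 and 286 normalised reads in Control, so both clones lay far below Control. Hpgds, a synthase of prostaglandin D2, was lower in KO2 (-1.39 ± 0.09) and was also named for its values. Of the 17 tested genes of the list 3 were higher and 6 lower (17.6% and 35.3%, against 10.3% and 12.8% of all 9004 genes).

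Iron and haem genes included several of the larger steps. Of 27 tested genes 3 were higher and 8 lower in KO2 (11.1% and 29.6%, against 10.3% and 12.8% of all 9004 genes). The median of -0.0295 was positive without KO2 replicate 1 (0.0318), without KO1 replicate 3 (0.0476) and without the filter (0.0141). Haem oxygenase 1 (Hmox1) had 353, 332 and 290.3 in KO2, 919, 1006 and 1026 in KO1 and 334, 297 and 322 in Control (log2 difference -1.60 ± 0.06, limma adjusted p = 5.58e-30). The iron exporter ferroportin (Slc40a1) had 11.3, 12.8 and 14.2 in KO2, 57.7, 60.9 and 63 in KO1 and 20.9, 14.7 and 9.44 in Control, and the ferritin heavy chain (Fth1) had 7435, 7426 and 7292 in KO2, 11385, 11363 and 11285 in KO1 and 8228, 8346 and 8167 in Control. In these 3 genes KO1 was above Control, and KO2 overlapped it for Hmox1 and Slc40a1. The ferrireductase Steap3 was the reverse, with 50.9, 49.1 and 47.2 in KO2, 18.6, 18.97 and 15.2 in KO1 and 22.7, 16.7 and 15.7 in Control. Fth1 and Steap3 were named after their values were seen, and ferritin genes have processed copies that can share reads. NRF2 targets were called on both sides, 12 of 35 higher and 8 lower (34.3% and 22.9%, with 5 lower without KO2 replicate 3). Akr1b8, an aldehyde reductase, had 798, 844 and 871 in KO2, 399.9, 406 and 436 in KO1 and 133, 154 and 147 in Control, and Taldo1, of the pentose phosphate route, had 1328, 1266 and 1284 in KO2, 719, 726 and 737 in KO1 and 759.8, 671 and 753 in Control. Akr1b8 was raised in both clones, more in KO2, and Taldo1 in KO2 alone.

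Of 54 tested lysosomal genes 18 were lower and 7 higher in KO2 (33.3% and 13%, against 12.8% and 10.3% of all 9004 genes). Arylsulfatase B (Arsb) had 284, 269.99 and 241 in KO2, 669, 695 and 617 in KO1 and 669, 704 and 648 in Control, 2.48-fold lower in KO2, and its values overlapped between KO1 and Control. Of 36 genes of glycolysis and hypoxia 10 were higher and 6 lower (27.8% and 16.7%). The transporter gene Slc2a6 had 108, 105 and 95.6 in KO2, 209, 228 and 223 in KO1 and 303, 296 and 322 in Control. Of 57 genes of oxidative phosphorylation 7 were higher and 2 lower, and 3 were higher without KO2 replicate 1 or without KO1 replicate 1. The share of higher genes was close to that of all 9004 genes (12.3% against 10.3%). The share of lower genes was smaller (3.51% against 12.8%). Of 74 genes of cytosolic ribosomal proteins 35 were higher in KO2 by small steps, 39 were not called and 0 were lower in the limma fit (47.3% higher, against 10.3% of all 9004 genes; median 0.0902). None was lower at an unadjusted p under 0.05 or by DESeq2. The largest were Rps12 (1993, 1964 and 1869 in KO2, 1458, 1535 and 1569.95 in KO1, 2061, 1902 and 1955 in Control) and Rpl12 (1969.96, 2112 and 2026 in KO2, 1608, 1659 and 1710.2 in KO1, 1965, 1868 and 1904 in Control). The count of ribosomal genes higher in KO2 was 20 without KO2 replicate 1, without KO1 replicate 1 and by DESeq2, and these genes have many processed copies that can share reads.

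Cell cycle lists had small medians, with genes called in both directions. Of 51 tested genes of S phase 7 were higher and 3 lower in KO2 (13.7% and 5.88%, median -0.0138). Of 51 genes of G2 and M phase 7 were higher and 8 lower (13.7% and 15.7%, median -0.078). In all, 19.6% of the S phase list and 29.4% of the G2 and M list were called, against 23.0% of all 9004 genes. Of the G2 and M genes 4 were higher without KO2 replicate 1, 4 without KO1 replicate 2, 3 without KO1 replicate 3 and 2 by DESeq2. The median of the S phase list was 0.0025 with total reads as size factor and 0.0087 without KO1 replicate 3, and DESeq2 called 2 of its genes higher. Cyclin E1 (Ccne1) had 168, 192 and 164 in KO2, 142, 119 and 139 in KO1 and 147, 143 and 144 in Control, and securin (Pttg1) had 132, 152 and 97.9 in KO2, 173, 197 and 173 in KO1 and 143, 150.2 and 149 in Control. Of 35 p53 targets and cell cycle inhibitors 8 were lower and 3 higher (22.9% and 8.57%, against 12.8% and 10.3% of all 9004 genes). The kinase gene Plk2 had 6.604, 5.89 and 2.36 in KO2, 29.9, 26.95 and 27.4 in KO1 and 19.2, 19.6 and 17.8 in Control (log2 difference -2.37 ± 0.30), and Pmaip1, a promoter of apoptosis, had 89.6, 93.3 and 99.1 in KO2, 50.5, 47.9 and 58.9 in KO1 and 49.7, 51.1 and 55.6 in Control. The KO2 level of Plk2 was below every other library and that of Pmaip1 above every other library. Of 43 transcription factors of the macrophage lineage 6 were higher and 9 lower (14% and 20.9%, beside 10.3% and 12.8% of all 9004 genes), among them Lyl1, a factor of blood progenitors, with 37.7, 46.1 and 42.5 in KO2, 77.3, 85.8 and 102 in KO1 and 139.6, 140.4 and 126 in Control.

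Of 19 tested genes of DNA methylation, imprinting and pluripotency 6 were higher and 3 lower in KO2 (31.6% and 15.8%, against 10.3% and 12.8% of all 9004 genes). Dnmt3l, the partner of the de novo DNA methyltransferases, had 29.2, 24.5 and 23.6 in KO2, 9.28, 10.98 and 10.2 in KO1 and 7.85, 12.8 and 6.29 in Control (log2 difference 1.26 ± 0.30, limma adjusted p = 0.000646). KO1 and Control overlapped. Among 16 tested genes of the SCAN family, to which Zscan10 belongs, 2 were higher and 1 lower, shares of 12.5% and 6.25% beside 10.3% and 12.8% of all 9004 genes. Zfp110 had 107, 112 and 99.1 in KO2, 85.5, 72.9 and 74.2 in KO1 and 121, 114 and 110.1 in Control. Of 10 tested chemokine and chemokine receptor genes 3 were higher and 4 lower in KO2 (30% and 40%).

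Outside the excluded stretches no chromosome was shifted as a whole, apart from chromosome Y. The median log2 difference was -0.0274 to 0.0195 over the chromosomes other than 12 and Y, and 202 stretches of 10 Mb with at least 15 genes had medians of -0.32 to 0.17. The Y chromosome had 4 tested genes, 3 of them higher in KO2, with a median of 0.50, and they were named after their values were seen. The translation factor gene Eif2s3y had 148, 143 and 148 in KO2, 99.98, 109.8 and 118 in KO1 and 155, 187 and 177 in Control, the helicase gene Ddx3y had 202, 206 and 223 in KO2, 125, 119 and 127 in KO1 and 161, 165 and 173 in Control, and the demethylase gene Uty had 55.7, 48.1 and 56.6 in KO2, 34.01, 36.9 and 34.5 in KO1 and 57.6, 50.1 and 55.6 in Control. Kdm5d was not called (0.26 ± 0.14), and Uty lost its call by DESeq2 (adjusted p = 0.0592) and on the FPKM values (limma adjusted p = 0.0648). In the 3 called genes KO1 was lowest. The median of the 4 genes against Control was -0.0305 in KO2 and -0.52 in KO1, values that share the Control libraries. Whether fewer cells carry the chromosome or each carries less of its RNA cannot be told apart in bulk libraries.

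The lowest stretches in KO2 lie on chromosomes 17 and 2 and, like the genes named in them, were picked for their values. Over all 9004 genes 12.8% were lower and 10.3% higher. The first 10 Mb of chromosome 17 had a median of -0.32 over 26 genes, 7 lower and 1 higher. Against the shared Control libraries its median was -0.27 in KO2 and -0.12 in KO1, whereas KO1 lay above Control in the 2 genes given next. This stretch holds the sorting nexin gene Snx9, with 212, 234 and 219 in KO2, 468, 472 and 498 in KO1 and 323, 306 and 348 in Control, and ezrin (Ezr), which ties actin to the membrane, with 86.8, 71.7 and 70.8 in KO2, 124, 94.8 and 104 in KO1 and 82.9, 63.8 and 81.8 in Control. The stretch of chromosome 2 from 130 to 140 Mb had a median of -0.22 over 39 genes, 14 lower and 2 higher (-0.05 in KO2 and 0.12 in KO1 against Control). Within it the attractin gene Atrn had 166, 194 and 178 in KO2, 434, 412 and 424 in KO1 and 332, 332 and 299 in Control, and the phosphatase gene Ptpra had 494, 515 and 478 in KO2, 734, 782 and 754 in KO1 and 636, 628 and 625 in Control. All 4 genes were lower in KO2 than in KO1, and Ezr overlapped between KO2 and Control and lost its call without KO1 replicate 1 (limma adjusted p = 0.0575). On chromosome 6 Flnc (29433153 to 29461888) and Smo (29735497 to 29761366) lie near each other, both higher in KO2, and Atp6v1f (0.11 ± 0.09) and Tnpo3 (0.051 ± 0.05) between them were not called.

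**Figure D5:**
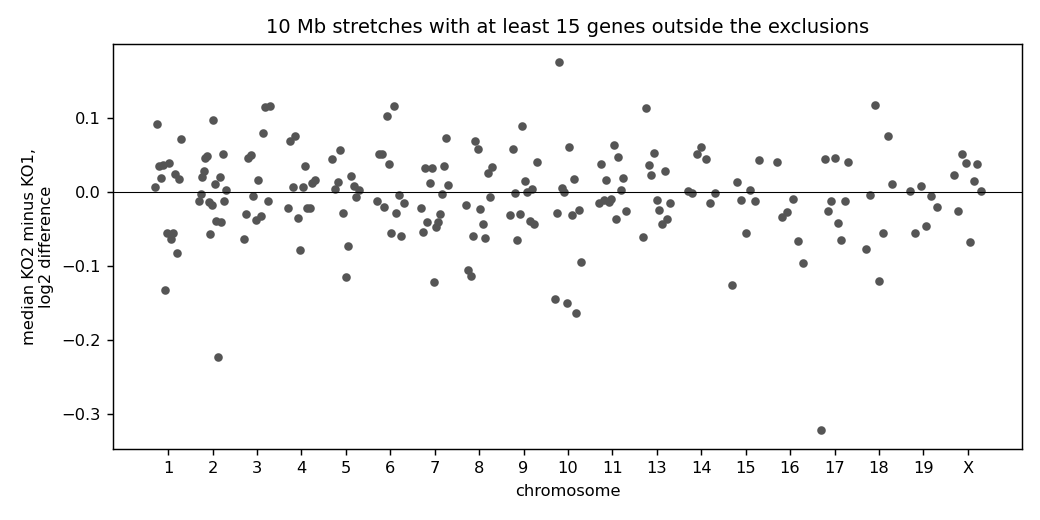
Each point is the median log2 difference KO2 minus KO1 of a stretch of 10 Mb with at least 15 genes outside the exclusions (y axis), in order along each chromosome (x axis). Of the 202 stretches 5 lie beyond 0.15 on either side, and the lowest are on chromosomes 17 and 2.

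The remaining genes of the naming rule made smaller steps and are given by their log2 difference. Higher in KO2 were the adhesion protein L1cam (1.48 ± 0.26), the matrix cross-linking enzyme Loxl2 (1.02 ± 0.23), the plexin Plxnd1 (0.59 ± 0.12), the aldolase Aldoc (0.57 ± 0.15), the mitotic protein survivin (Birc5, 0.33 ± 0.07) and Uqcrfs1 of respiratory complex III (0.33 ± 0.07). Lower in KO2 were the receptor Eda2r (-1.63 ± 0.34), the granzyme inhibitor Serpinb9 (-1.26 ± 0.28), annexin A3 (Anxa3, -1.01 ± 0.14), the potassium channel Kcnj2 (-0.81 ± 0.10) and the shared cytokine receptor chain Il2rg (-0.66 ± 0.09). Kctd12 (-0.63 ± 0.11), Rfx5, a regulator of class II genes (-0.57 ± 0.14), cathepsin S (Ctss, -0.46 ± 0.04), Nfkb2 (-0.46 ± 0.12), whose exons overlap Psd on the opposite strand, and Sdhc of complex II (-0.24 ± 0.06) were lower as well. These 16 kept their call under all alternatives tried. A further 14 lost it under at least 1 alternative, 9 of them higher and 5 lower in KO2. The higher ones were Fcgr3, the Fc receptor III (1.23 ± 0.30), Pltp (0.93 ± 0.30, exons shared with Ctsa on the opposite strand), Dnmt3b (0.83 ± 0.26), Zscan12 (0.75 ± 0.23), Peg13 (0.62 ± 0.24), Zbtb7a (0.61 ± 0.14), Pfkm (0.55 ± 0.21), Exo1 (0.38 ± 0.11) and Rpl36 (0.25 ± 0.08). The lower ones were Synpo (-0.79 ± 0.20), Tnfaip3, an inhibitor of NF-kB (-0.67 ± 0.22), Gins4 (-0.35 ± 0.13), Ndc80 (-0.34 ± 0.10) and Cox6a1 (-0.21 ± 0.07). Leaving out 1 library ended the call of Fcgr3 (KO1 replicate 1), Dnmt3b (KO2 replicate 3), Exo1 (KO2 replicate 1), Zscan12 (KO2 replicate 3 or KO1 replicate 3), Tnfaip3 (KO1 replicate 1 or 3) and Pltp (KO2 replicate 2 or 3 or KO1 replicate 2). For Cox6a1, Gins4, Peg13, Pfkm and Rpl36 any of 3 or more single libraries did so.

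The authors' deposited table of the same 2 clones, made from FPKM values, held 8987 of the 9004 genes. It marked 1969 of them as significant, and 1677 were both marked there and called here. Of the 24 genes named above for the size of their difference 11 were marked significant in the authors' deposited table. Those not marked there were Sptbn1, Cytip, Kirrel3, Svil, Epb4.1l1, Ccl2, Htr1b, Cd24a, Ranbp3l, Chst1, Hpgd, Ppm1e and Nrp1. Why the calls differ was not tested.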

How the data were processed

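Total RNA with an integrity number above 8 was made into stranded mRNA libraries and sequenced on a MiSeq, per the labels' protocols. The submitters' processing notes name TopHat2, featureCounts 1.4.6, edgeR 3.20.1, Cufflinks 2.1.1 and mm10, without their roles. The deposited table of normalised signal held gene reads divided by a TMM size factor of each library, and whole reads were recovered from its steps for all values within 1e-06. The FPKM values, log2 ratios, p-values and q-values of the 2 clones come from the authors' deposited pair table and served as an alternative and a side by side count. Every deposited sample column was used, and 0 were left out.

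Genes reaching 10 in at least 3 of the 9 libraries were fitted with limma 3.58.1 (R 4.3.3, mean-variance trend) on log2(value + 1), with the group of all 9 libraries as the only term and Benjamini-Hochberg adjustment over 9564 genes. The members and lists were chosen with earlier results of these data known. Named genes are the 12 with the largest difference in each direction among called genes with a mean of at least 20 in the higher clone and no overlap between the clones, the 3 most different of each list, the 5 most different per direction with a mean of at least 500, and up to 4 per direction called oppositely against Control, and any other is said to be named after its values were seen. Folds are ratios of the reads summed over each group, divided by the summed size factors of its libraries. They are bounded with 3 reads over the group at 0 reads. At 1 to 3 reads they are given with a 95% counting interval, which covers counting error only. edgeR 4.0.16, limma-voom, DESeq2 1.42.0, other filters, size factors and pseudocounts, FPKM and leaving out each library were tried, and the fit was tested on simulated data. Same-numbered libraries of the 2 clones did not deviate together (correlations -0.017 to 0.0175), so the numbers were not taken as pairs. Some genes that the naming rule picks are not reported here.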

Additional observations from a re-analysis of the deposited data

Results flagged for a closer look

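In 48 of the named genes the clones were called on opposite sides of Control, so the difference between clones is larger than either difference from Control. These calls needed a limma adjusted p under 0.05 in both comparisons, which share the Control libraries. The genes were named for their values, some for lying on opposite sides of Control, so these counts describe the naming and not the clones. Over all 2073 called genes the Control mean lay between the clones in 1244 (60.0%), with no call against Control required. The 13 genes above Control in KO2 and below it in KO1 had log2 differences KO2 minus KO1, each called in the limma fit, of 5.62 for Psma8, 4.34 for Shisa3, 4.18 for Lysmd2, 4.03 for Cytip, 4.01 for Angptl2, 3.63 for Pde8a and 3.11 for Smo. Among the same 13 they were 2.91 for Ccl2, 2.64 for Plcb2, 2.38 for Flnc, 1.83 for Ptgs1, 0.79 for Ccl9 and 0.76 for Ddx3y. The other 35 were below Control in KO2 and above it in KO1. Of these 14 belong to the ER chaperones and the unfolded protein response, with -1.34 for Creld2, -1.20 for Sdf2l1, -1.13 for Pdia4, -1.08 for Manf, -1.07 for Hyou1, -0.92 for Dnajc3, -0.88 for Edem1, -0.85 for Hspa5, -0.72 for Hsp90b1, -0.57 for Calr, -0.55 for Pdia3, -0.37 for Sec61a1, -0.34 for Xbp1 and -0.26 for Canx. The largest of the other 21 were -4.01 for Xkr5, -3.16 for Sdc3, -3.07 for Ccnd2, -2.75 for Fgf13, -1.88 for Igf1, -1.74 for Ly86 and -1.72 for Car2. Smaller ones were -1.53 for Cacna1a, -1.32 for Lair1, -1.29 for Mpeg1, -1.24 for Atrn, -1.19 for Itga4, -1.14 for Spp1 and -1.11 for Snx9. The smallest were -0.81 for Kcnj2, -0.78 for Casp1, -0.62 for Fth1, -0.61 for Ptpra, -0.58 for Cd14, -0.50 for Spred1 and -0.46 for Ctss. Shisa3 and Lysmd2 passed the filter on low values through KO2 libraries alone and Xkr5 and Ccnd2 through KO1 libraries alone, so these 4 had to differ between the clones. Psma8, Shisa3 and Lysmd2 had 0 reads in KO1 and Xkr5 had 0 reads in KO2, so their values depend on the pseudocount.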

How the results depend on the processing

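The 124 genes that the naming rule picks kept their direction under all alternatives that gave a value, and 109 of them were called under all. Of the 50 genes named after their values were seen 42 were called, all 42 kept their direction and 38 were called under all. Of the 2073 called genes (924 higher and 1149 lower in KO2), DESeq2 called 1209, with 504 higher and 705 lower, and an adjusted p under 0.01 left 1395, with 589 higher. The cause of the lower DESeq2 count was not tested. Leaving out each library in turn gave 1743 to 2069 calls, 757 to 925 higher and 968 to 1144 lower. With the replicate number as a block 2084 genes were called, and the numbers are no evidence of pairing. edgeR called 2122, limma-voom 2084, the 6 clone libraries alone 1865, and the FPKM values 1657. With total reads as size factor 1030 were higher and 1063 lower. The medians of 10 of 36 lists changed sign under at least 1 alternative. That of prostaglandin enzymes, -0.18, was 0.0158 without the filter on low values, and those of the other 9 were within 0.0483 of 0 (osteoclast drivers, osteoclast effectors, cytokine receptors, Fc receptors and lectins, integrins, haem and iron, S phase, lysozyme and complement, Wnt and Notch). No other size factor moved a list median by more than 0.0303. List counts under 4 moved by single genes and carry little. At 1821703 to 2458539 reads per library, genes under 10 normalised reads were not tested, and with 1 clone a group, mutation and clonal origin cannot be told apart.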
